A study of Mus musculus with 2 samples.

Results

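Chemokines and chemokine receptors were examined in intestinal RNA of WT and ERAP1+/- mice. The members were the gene symbols of the CC, CXC, CX3C and XC ligands and receptors and of the atypical chemokine receptors, picked by their names and not by their values. They numbered 63 of the 40879 symbols counted, of which 41 were ligands and 22 were receptors. ERAP1 is an aminopeptidase of the endoplasmic reticulum that trims peptides for MHC class I, and the study asked how its partial loss bears on colitis. The mice were on the C57BL/6 background and 8 weeks old when assigned to groups. By the methods, untreated mice then received only regular water for 28 days before collection, with no colitis agent or drug. ERAP1+/- mice carried an Erap1 allele derived from the tm1a design, in which loxP sites flank 2 coding exons and which was crossed to a Cre strain whose driver is not named, beside a WT allele. The methods call the mice germ-free and also place them in a specific pathogen-free facility. RNA was mixed in equal amounts from 3 mice per genotype, whose sex is not stated, and each mixture was sequenced as 1 library from the 3' ends of transcripts. There is therefore no replicate of either genotype, no difference below has a replicate check, and no p-value is given.

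Chemokines are small secreted proteins that guide leukocytes along gradients through G protein-coupled receptors on the cell surface. In the gut, some are made steadily by stroma and epithelium and set where lymphocytes and macrophages reside, and others are induced by microbial or cytokine signals and draw in neutrophils, monocytes and effector T cells. Atypical receptors bind the same ligands without signaling through G proteins and remove or transport them.

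Counted reads numbered 8114826 in WT and 8907515 in the library labelled ERAP1+/-. Levels are given as CPM, reads scaled to a common library size with TMM factors (trimmed means of M values), which made 1 read worth 0.129 CPM in WT and 0.107 CPM in the library labelled ERAP1+/-. Where no read was counted, up to 3 reads remain possible, which is 0.386 CPM in WT and 0.322 CPM in the library labelled ERAP1+/-. Reads come from transcript ends, so CPM carries no gene length. Ratios are given as the library labelled ERAP1+/- over WT with exact 95% intervals that cover counting error only and not the variation between mice. Differences in log2(CPM + 1) were also computed, a scale that understates the difference of genes with few reads, and a gene was counted as higher or lower where that difference passed 2-fold. The targeted gene, Erap1, had 229 reads in WT and 2 in the library labelled ERAP1+/-, which goes against a label of 1 intact allele. The reads lie at the transcript end, outside the flanked exons, so they do not test the deletion itself.

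The 2 mixtures also differed in the tissue they held. Summed epidermal and stratified epithelial genes stood at 3902 CPM in WT and 66.8 CPM in the library labelled ERAP1+/- (58.4-fold lower, 54.0 to 63.4), with all 18 lower. Skeletal muscle genes were 7.53-fold lower (7.20 to 7.88), and smooth muscle genes were 1.93-fold lower (1.90 to 1.95). Xist, the transcript of the inactive X chromosome, had 1635 reads in WT and 6451 in the library labelled ERAP1+/-, and the 4 genes of the Y chromosome examined were all lower there. The 10 colonocyte markers, Car1, Car4 and Slc26a3 among them, summed to 10024 and 7387 CPM, so that the labelled tissue was present in both. The 10 markers of small intestinal enterocytes summed to 38.7 and 37.3 CPM, with Apob, Fabp6, Slc10a2 and Rbp2 detected in both libraries and Apoa4 and Sis at 0 in both. The part of these tissue and sex differences in the values below was not tested, and genotype, tissue and sex cannot be told apart in 2 libraries. In bulk RNA, fewer cells of a type and less RNA per cell also cannot be told apart.

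Several ligands that cells are known to make on inflammatory or interferon signals had high ratios from few reads. For 5 of them with a promoter in the RefSeq table, the 250 bases before the start (GRCm38.p6) are shown, 5' to 3' on the strand of the gene, with matches to the NF-kB consensus or to the core of the interferon-stimulated response element in capitals. Ccl6, the ligand with the most reads, is shown beside them. Neither Ccl6 nor Cxcl9 had a match, and both were higher in the library labelled ERAP1+/-.
Cxcl1, chr5:90890995-90891244, plus strand: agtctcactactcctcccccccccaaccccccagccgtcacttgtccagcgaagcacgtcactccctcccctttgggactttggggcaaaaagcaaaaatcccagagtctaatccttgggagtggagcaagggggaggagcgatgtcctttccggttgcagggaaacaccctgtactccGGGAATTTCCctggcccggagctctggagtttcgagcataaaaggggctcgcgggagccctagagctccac
Cxcl2, chr5:90903649-90903898, plus strand: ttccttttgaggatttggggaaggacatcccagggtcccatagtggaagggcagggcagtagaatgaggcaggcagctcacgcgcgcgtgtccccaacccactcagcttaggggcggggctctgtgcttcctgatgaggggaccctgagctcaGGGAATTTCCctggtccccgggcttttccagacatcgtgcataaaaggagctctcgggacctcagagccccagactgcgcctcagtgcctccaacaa
Ccl20, chr1:83116516-83116765, plus strand: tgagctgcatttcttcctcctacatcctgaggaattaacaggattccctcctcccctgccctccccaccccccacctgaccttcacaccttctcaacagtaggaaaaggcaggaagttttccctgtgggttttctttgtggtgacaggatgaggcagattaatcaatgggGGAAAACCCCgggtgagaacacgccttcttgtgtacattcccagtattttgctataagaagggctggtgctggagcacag
Cxcl9, chr5:92328080-92328329, minus strand: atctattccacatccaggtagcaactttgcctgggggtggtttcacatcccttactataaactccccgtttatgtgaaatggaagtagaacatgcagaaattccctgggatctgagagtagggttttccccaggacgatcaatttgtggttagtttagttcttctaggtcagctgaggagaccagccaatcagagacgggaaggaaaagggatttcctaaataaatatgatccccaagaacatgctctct
Cxcl10, chr5:92348890-92349139, minus strand: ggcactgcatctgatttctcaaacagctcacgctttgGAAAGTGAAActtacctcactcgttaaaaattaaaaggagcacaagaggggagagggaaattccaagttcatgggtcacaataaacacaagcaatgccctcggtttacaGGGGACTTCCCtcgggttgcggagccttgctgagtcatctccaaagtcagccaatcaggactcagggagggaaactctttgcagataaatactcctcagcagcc
Ccl6, chr11:83593088-83593337, minus strand: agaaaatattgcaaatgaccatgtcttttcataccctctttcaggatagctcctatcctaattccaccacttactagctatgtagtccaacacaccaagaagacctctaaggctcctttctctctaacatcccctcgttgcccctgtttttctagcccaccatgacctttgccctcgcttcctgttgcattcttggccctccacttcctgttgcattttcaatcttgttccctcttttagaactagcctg

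The NF-kB consensus matched 71 to 62 bases before the start of Cxcl1, 97 to 88 bases before that of Cxcl2 and 80 to 71 bases before that of Ccl20. The match was the same run, GGGAATTTCC, in Cxcl1 and Cxcl2. In Cxcl10, overlapping NF-kB matches lay 104 to 94 bases before the start, and the interferon-stimulated response core, searched as GAAANNGAAA, lay 213 to 204 bases before it. No match of these motifs, or of the GAS element TTCNNNGAA, was found on either strand in the window of Ccl6 or Cxcl9. Of the members, 46 had a promoter in the RefSeq table. The NF-kB consensus was in 10 of them (Ackr2, Ccl1, Ccl20, Ccl9, Ccr3, Ccr6, Cxcl1, Cxcl10, Cxcl2 and Cxcl3) and in 1533 of 27025 promoters of all genes (5.67%). The interferon-stimulated core was in 3 members (Ccl19, Cxcl10 and Cxcl14) against 3.46% of all promoters, and the GAS element was in 3 members (Ccl17, Ccr6 and Cxcl14) against 8.13%. Members with an NF-kB match did not share a direction. Ccl20, Ccr6, Cxcl1, Cxcl2 and Cxcl10 had intervals above 1, whereas Ackr2 was 2.69-fold lower (1.32 to 5.84). Ccl9 had an interval that included 1, Cxcl3 had 1 read in each library, Ccr3 had 0 and 1, and Ccl1 had none. A match describes letters only and is no measure of binding.

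Reads were found for 48 members in WT and 52 in the library labelled ERAP1+/-. The 11 members without a read in either library included Ccl3 and Ccl4, which macrophages and T cells make on activation, Ccr8 and Cxcr1. A further 11 members had fewer than 10 reads over both libraries, and 41 members, 26 ligands and 15 receptors, had 10 or more. Among these 41, 8 were more than 2-fold higher in the library labelled ERAP1+/- (19.5%) and 1 was more than 2-fold lower (2.44%). Among all 16142 genes with as many reads, 2.99% were higher and 5.63% were lower. The median difference in log2(CPM + 1) was 0.28 over the 41 members and 0.00 over all genes. Counting intervals lay above 1 for 18 members (43.9%, against 20.6% of all genes) and below 1 for 6 (14.6%, against 23.8%).

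The filter shaped this count. Of the 41 members, 27 had at least 10 reads in each library, 13 reached 10 reads in the library labelled ERAP1+/- only, none in WT only, and 1 only by adding both libraries. A member with few reads could pass through the library where it was higher, so the 41 are not a measure of the family. Among the 27 members with at least 10 reads in each library, 3 were more than 2-fold higher (Ccl6, Cxcr4 and Ackr4) and 1 was more than 2-fold lower (Ackr3), beside 1.97% and 2.70% of the 13577 genes that met the same limit. In these 27, intervals lay above 1 for 9 and below 1 for 6, beside 21.6% and 23.4% of genes.

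**Figure D1:**
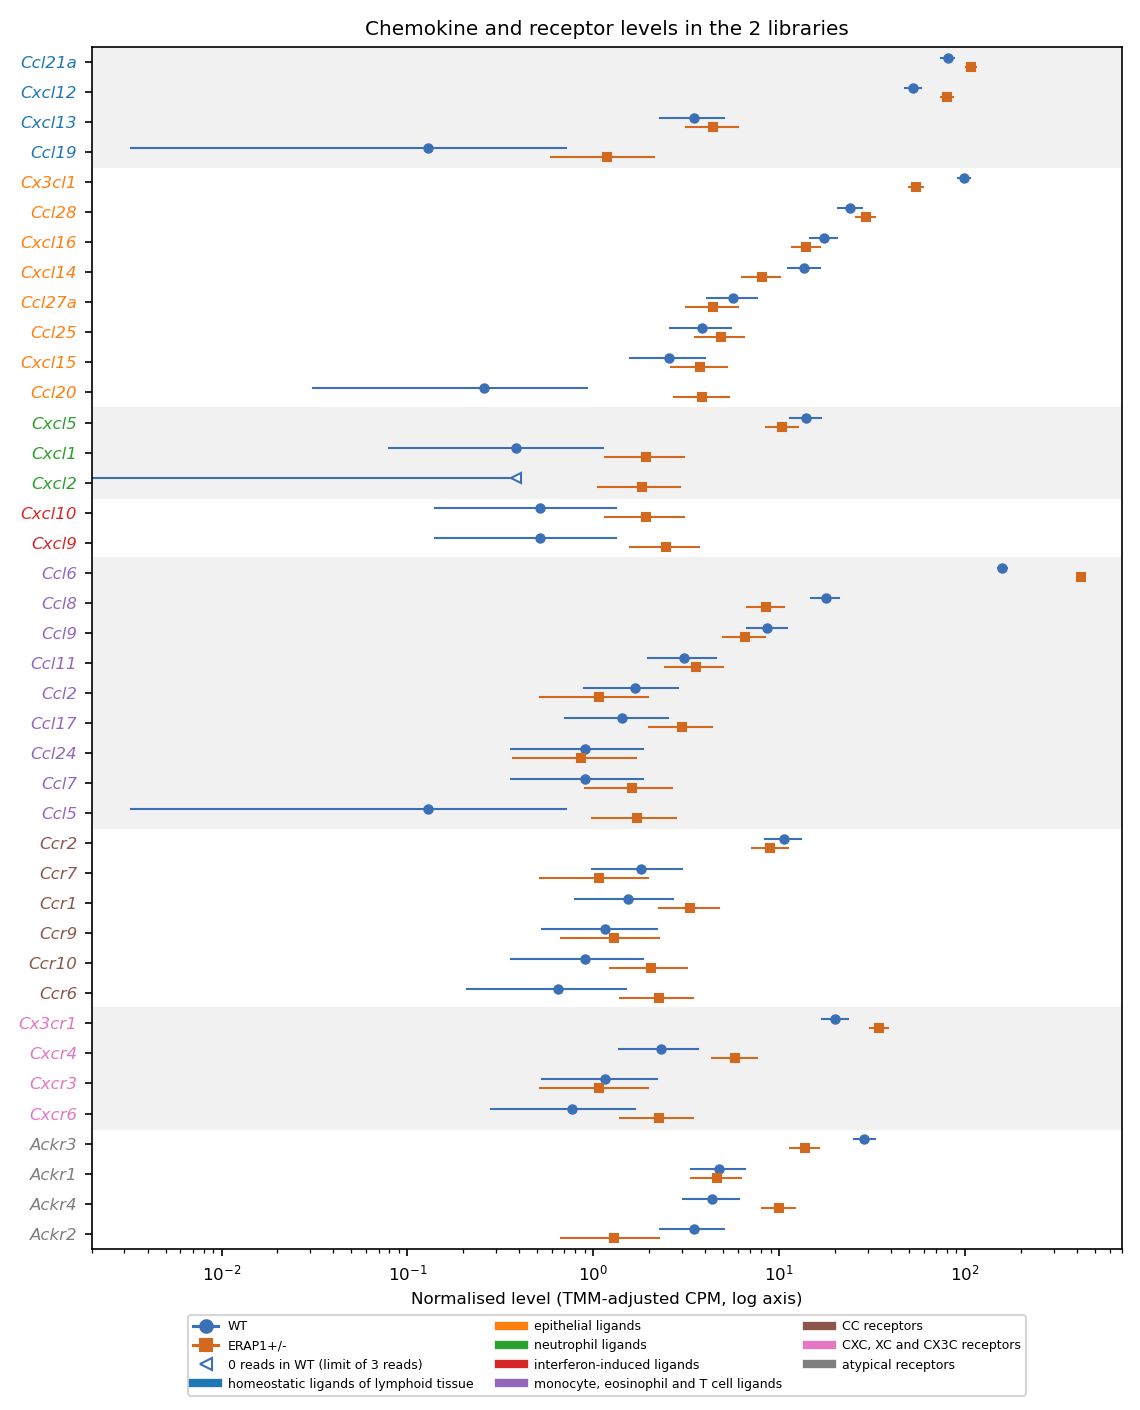
TMM-adjusted CPM (log axis) of 40 of the 41 chemokine genes with at least 10 reads, in WT (circles) and in the library labelled ERAP1+/- (squares), with exact 95% Poisson intervals and gene names colored by role. Ccl6 had the highest level in both libraries, 159 and 422 CPM, and the open triangle for Cxcl2 marks the limit of 3 reads for its 0 reads in WT.

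The excess of ligand reads rested mostly on Ccl6. Ccl6, a CC ligand of rodents that acts on Ccr1 and draws macrophages and other myeloid cells, had 1239 reads in WT and 3928 in the library labelled ERAP1+/-, or 159 and 422 CPM. Its ratio was 2.65 (2.48 to 2.83), a difference in log2(CPM + 1) of 1.40, and its rank among all genes went from 1045 to 269. All ligands together had 3990 and 7313 reads, a ratio of 1.53 (1.47 to 1.59). Without Ccl6 the ligand sum was 354 CPM in WT and 364 CPM in the library labelled ERAP1+/-, a ratio of 1.03 (0.977 to 1.08). That split was made with the values known. The remaining ligands went in both directions. Those of lymphoid tissue at rest had a summed ratio of 1.41 (1.31 to 1.52) and the epithelial ones of 0.740 (0.682 to 0.801). Ccl6 took 31.1% of ligand reads in WT (Wilson 95% interval 29.6% to 32.5%) and 53.7% in the library labelled ERAP1+/- (52.6% to 54.9%). The gene lies at chr11:83587882-83593087 on the minus strand of GRCm38. Its neighbor Ccl9, which also acts on Ccr1, ends 9245 bases away, and it had 67 and 61 reads (0.761, 0.529 to 1.09). Adjacent genes thus had ratios whose intervals did not overlap. Beside Ccl6, summed markers of macrophages and monocytes were 287 CPM in WT and 347 CPM in the library labelled ERAP1+/- (1.21, 1.15 to 1.28), with 7 of the 11 that had at least 10 reads above 0 and 4 below. Adgre1 had a ratio of 0.891 (0.617 to 1.29), Csf1r of 1.57 (1.36 to 1.82) and Cd68 of 0.984 (0.712 to 1.36), and Ly6c2, a monocyte gene, was past 2-fold at 2.56 (1.67 to 4.04). Goblet cell markers were 8820 and 14323 CPM (1.62, 1.61 to 1.64), with all 8 above 0. The part of either cell type in the Ccl6 value was not tested.

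Of the 4 members that recruit neutrophils through Cxcr2, Cxcl1 and Cxcl2 had few reads in WT and more in the library labelled ERAP1+/-, Cxcl3 had 1 read in each, and Cxcl5 was lower. Cxcl1 had 3 reads in WT and 18 in the library labelled ERAP1+/- (5.01, 1.46 to 26.6). For Cxcl2, WT had 0 reads and the library labelled ERAP1+/- 17, a ratio of 4.73 with the 0 set at 3 reads. The lower limit of the exact 95% interval, which also covers the counting error of the 17 reads, was 3.45. Both lie in a block of chromosome 5 (GRCm38 90759360 to 90905938) with Cxcl5, Cxcl3 and Cxcl15, and Cxcl2 starts 10755 bases after the end of Cxcl1. Cxcl5, which epithelial cells make, had 108 and 97 reads in the same block and a ratio of 0.750 (0.564 to 0.996). The sum of all 4 was 14.4 and 14.3 CPM (0.992, 0.766 to 1.29). Without Cxcl5, the member with the most reads, the other 3 summed to 4 and 36 reads (7.52, 2.69 to 29.1), a split made with the values known. Over the last 400 bases of its transcript, 5.55% of the 75-base stretches of Cxcl2 also occur in Cxcl3. Cxcl15, a lung and epithelial ligand of this block also known as lungkine, had 20 and 35 reads (1.46, 0.821 to 2.67). The receptor itself, Cxcr2, had 3 reads in WT and 1 in the library labelled ERAP1+/-. Genes on the list of neutrophil markers differed in both directions. S100a8 had 49 and 165 reads and S100a9 52 and 171, whereas Ly6g had 2867 and 1367 and Ltf 95 and 5. Retnlg, Ngp and Camp, which are made by neutrophils and their precursors, were at 0 in WT and had 18, 1 and 3 reads in the library labelled ERAP1+/-. The summed neutrophil list was 399 CPM in WT and 190 CPM in the library labelled ERAP1+/-, most of it Ly6g (369 and 147 CPM). Csf3r, another gene of the list, had 1 and 5 reads. The sum thus follows 1 gene and is no measure of neutrophil number, and the part of neutrophils in the ligand values was not tested.

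The interferon-induced ligands of Cxcr3, which guides effector T cells and NK cells, were also few but higher in the library labelled ERAP1+/-. Cxcl9 had 4 reads in WT and 23 in the library labelled ERAP1+/- (4.80, 1.64 to 19.1), and its neighbor Cxcl10 had 4 and 18 (3.76, 1.24 to 15.3). Their sum with Cxcl11, which had 0 and 1 read, was 1.03 and 4.51 CPM (4.39, 2.03 to 10.8). Cxcr3 had 9 and 10 reads (0.928, 0.339 to 2.58), an interval that overlaps that of its ligands. Ccl5, which T cells and NK cells secrete, had 1 read in WT and 16 in the library labelled ERAP1+/- (13.4, 2.08 to 560). Cxcl10 overlaps an exon of Art3 on the opposite strand, which had 167 and 82 reads. T cell markers summed to 9.27 CPM in WT and 14.6 CPM in the library labelled ERAP1+/- (1.58, 1.18 to 2.13), with 4 of the 6 that had at least 10 reads above 0 and 2 below. Cd3e had 0 and 8 reads, Cd3d 2 and 3 and Cd3g 2 and 6, whereas Cd4 had 21 and 15. Innate lymphoid and NK cell markers summed to 32.2 and 14.1 CPM, and Il23r, Gzma and Tbx21 of that list were at 0 in WT. Whether these cells bear on the ligand values was not tested.

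Ccl20 had the largest difference in log2(CPM + 1) of the members, 1.95. This ligand, made by the epithelium over lymphoid follicles, had 2 reads in WT and 36 in the library labelled ERAP1+/- (15.0, 3.87 to 129). Its only receptor, Ccr6, which B cells and Th17 cells carry, had 5 and 21 reads (3.51, 1.29 to 11.9) and a difference of 0.99, just under the 2-fold limit. B cell markers differed in the same direction. Their sum was 16.7 CPM in WT and 34.6 CPM in the library labelled ERAP1+/- (2.07, 1.68 to 2.56), with all 8 that had at least 10 reads above 0 and none of the 10 at 0 in either library. Ms4a1, which encodes CD20, had 13 and 38 reads. Madcam1, the addressin of gut lymphoid tissue, had 1 and 30 reads, the largest difference on the list of lymphoid stroma markers. The 8 genes of that list summed to 228 CPM in WT and 229 CPM in the library labelled ERAP1+/- (1.01, 0.944 to 1.07). Of the 7 with at least 10 reads, 5 were above 0. The 2 below were Il7 (2.24-fold lower, 1.42 to 3.58) and Ltbr (1.13-fold lower, 1.05 to 1.23). How far lymphoid follicles in the sampled tissue bear on Ccl20 and Ccr6 was not tested.

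**Figure D2:**
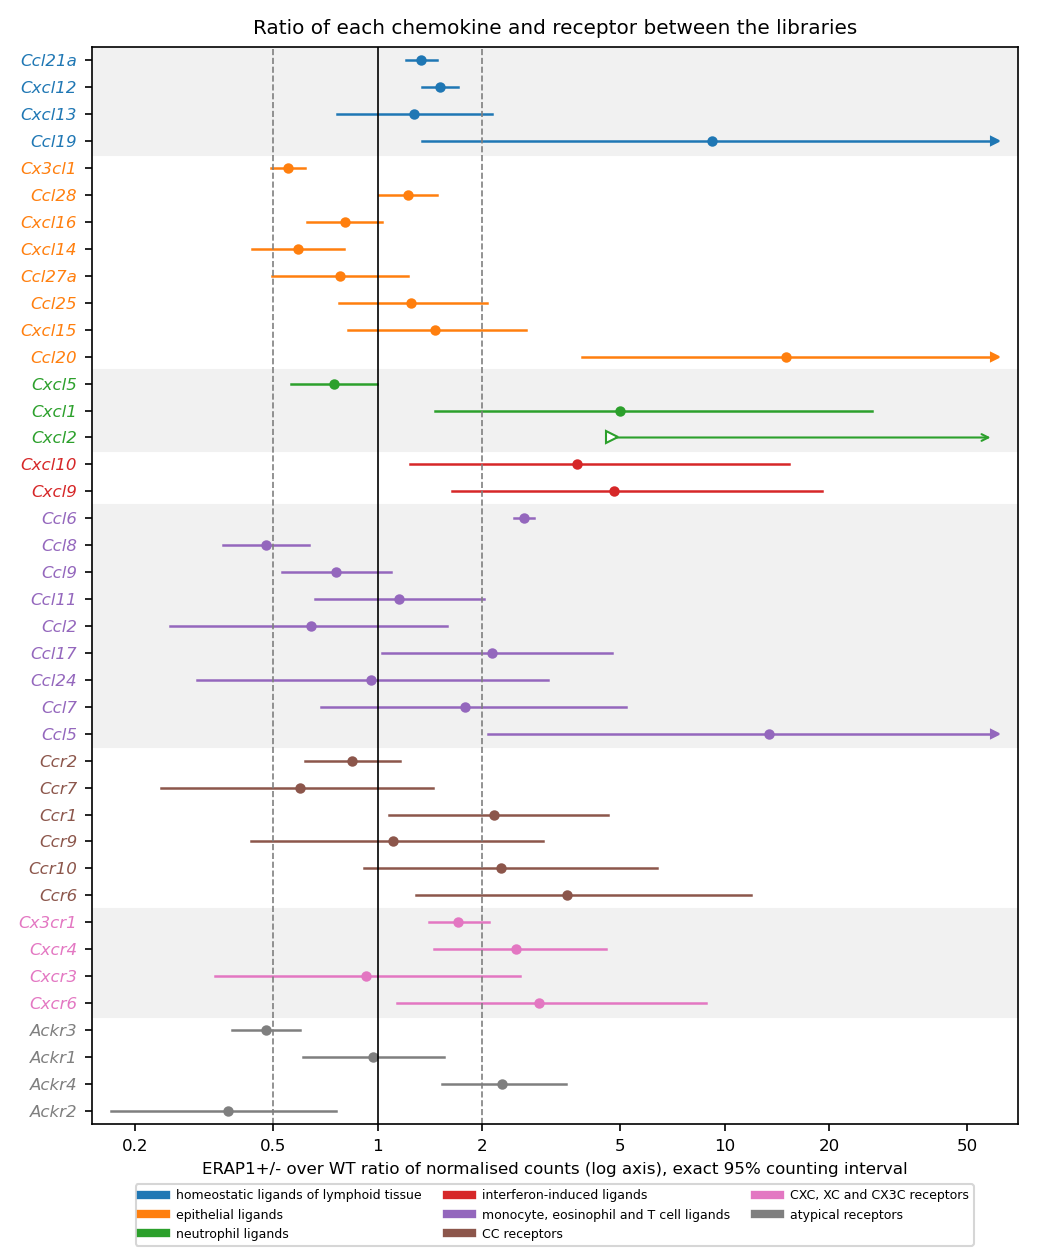
Ratio of normalized counts, library labelled ERAP1+/- over WT (log axis), of 40 of the 41 chemokine genes with exact 95% counting intervals, colored by role, with dashed lines at 2-fold. Arrowheads mark intervals that run past the axis, and the open triangle marks the value of 4.73 for Cxcl2, with the 0 reads in WT set at 3. Ccl20, Ccl5 and Ccl19 lie far to the right with wide intervals, while Ccl6, Cx3cl1 and Ackr3 have narrow ones.

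Homeostatic ligands of lymphoid tissue were higher to a lesser degree. Ccl21a, which lymphatic vessels and lymph node stroma make for cells with Ccr7, had 628 reads in WT and 1003 in the library labelled ERAP1+/- (1.33, 1.21 to 1.48). Cxcl12, the stromal ligand that holds leukocytes and progenitors in place through Cxcr4, had 410 and 743 (1.51, 1.34 to 1.71). Ccl19, the other Ccr7 ligand, had 1 and 11 (9.19, 1.34 to 395). Cxcl13, which attracts B cells into follicles, had 27 and 41, and its interval included 1 (1.27, 0.762 to 2.14). The group summed to 137 and 193 CPM (1.41, 1.31 to 1.52). The 6 lymphatic endothelial markers summed to 233 CPM in WT and 209 CPM in the library labelled ERAP1+/- (0.898, 0.842 to 0.958). Most of that sum was Lyve1, with 1197 of 1807 reads in WT and 1098 of 1942 in the other library (0.766, 0.705 to 0.832). Of the 6, 3 were above 0 and 3 below. Only Pdpn had an interval above 1 (1.40, 1.16 to 1.68), and only Lyve1 had one below 1. The fibroblast sum was 3546 and 3014 CPM (0.850, 0.836 to 0.864). Ccl21a and Ccl19 have near-identical copies. Of the 75-base stretches in the last 400 bases, 58.9% in Ccl21a and about as many in Ccl19 also occur in other genes, so their counts are uncertain where reads were divided or dropped. Ccl21b, Ccl21d, Ccl19-ps1 and Ccl19-ps2 had no read.

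Ligands made by epithelium differed in both directions. Cx3cl1, a membrane-bound ligand also called fractalkine, had 768 reads in WT and 507 in the library labelled ERAP1+/-, and it was 1.81-fold lower (1.62 to 2.03). It was the second ligand by level in WT, at 98.8 CPM, and its share of ligand reads went from 19.2% (18.1% to 20.5%) to 6.93% (6.37% to 7.54%). Cxcl14, which skin and other epithelia express at rest, had 106 and 75 reads and was 1.69-fold lower (1.25 to 2.31). Ccl28, which draws IgA plasma cells with Ccr10 to mucosa, had 187 and 273 reads (1.22, 1.01 to 1.48), beside plasma cell markers at 287 and 533 CPM (1.86, 1.77 to 1.95). Jchain took 561 of the 2231 marker reads in WT and 2788 of 4962 in the library labelled ERAP1+/-. Of the 8 markers 6 were above 0 and 2 below, Prdm1 (2.61-fold lower, 2.05 to 3.35) and Sdc1 (1.15-fold lower, 1.04 to 1.27). For 4 ligands, Cxcl15 above among them, the interval included 1. Cxcl16, a membrane-bound ligand of Cxcr6, had 135 and 130 reads (0.804, 0.627 to 1.03). Ccl25, which homes T cells with Ccr9 to the small intestine, had 30 and 45 (1.25, 0.772 to 2.06). Ccl27a, a skin ligand, had 44 and 41 (0.778, 0.496 to 1.22), with 37.2% of its end stretches shared with other genes and an exon of Il11ra1 on the opposite strand. Epidermis, where Cxcl14 and Ccl27a are known to be expressed, had the much lower marker sum given above, and its part in these 2 values was not tested.

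Ligands of monocytes, eosinophils and T cells other than Ccl6 and Ccl5 showed no common direction. Ccl8, made by resident macrophages, had 138 reads in WT and 79 in the library labelled ERAP1+/- and was 2.09-fold lower (1.57 to 2.79), with a difference in log2(CPM + 1) of -0.98. Ccl17, which dendritic cells make for T cells with Ccr4, had 11 and 28 reads (2.13, 1.03 to 4.73). Ccl2, the main ligand of Ccr2 on monocytes, had 13 and 10 (0.643, 0.252 to 1.59), and Ccl7 had 7 and 15 (1.79, 0.687 to 5.19). The eotaxins Ccl11 and Ccl24, which act on Ccr3 of eosinophils, had 24 and 33 reads (1.15, 0.659 to 2.03) and 7 and 8 reads (0.955, 0.302 to 3.09). For the 4 genes Ccl2, Ccl7, Ccl11 and Ccl24, a difference was not detectable at this depth. Without Ccl6 the 15 ligands of this group summed to 273 and 268 reads, a ratio of 0.820 (0.690 to 0.974). Ccl8 alone gave 138 of the 273 reads in WT and 79 of the 268 in the library labelled ERAP1+/-. The sum thus leans on Ccl8 and is no measure of a direction of the group.

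All receptors together had 668 reads in WT and 888 in the library labelled ERAP1+/- (1.11, 1.00 to 1.23). Signaling receptors had 346 reads in WT and 612 in the library labelled ERAP1+/-, a ratio of 1.48 (1.29 to 1.69). Cx3cr1, the receptor of resident intestinal macrophages, had the most reads of these, 156 and 320 (1.71, 1.41 to 2.09). Cxcr4, the receptor of Cxcl12 on most leukocytes, had 18 and 54 (2.51, 1.45 to 4.54) and was past 2-fold, with a difference of 1.04. Cxcr6, found on resident T cells and innate lymphoid cells, had 6 and 21 (2.92, 1.14 to 8.85), and Ccr1, the myeloid receptor of Ccl6, had 12 and 31 (2.16, 1.08 to 4.61). Each of these 4 had an interval above 1, as did Ccr6. Intervals included 1 for the other 6 signaling receptors with at least 10 reads. Ccr2, the receptor of monocytes that enter the tissue, had 82 and 83 reads (0.845, 0.616 to 1.16). Ccr10 on IgA plasma cells had 7 and 19 (2.27, 0.913 to 6.38), and Ccr9, the gut-homing receptor, had 9 and 12 (1.11, 0.431 to 2.99). Ccr7, which takes dendritic cells and naive T cells to lymph nodes, had 14 and 10 (0.597, 0.237 to 1.44). Cxcr3 is given above. Cxcr5 on follicular B cells had 3 and 2 reads and Xcr1 on cross-presenting dendritic cells 6 and 3, too few for a ratio to be read.

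The 4 atypical receptors differed among themselves. Their sum was 41.4 CPM in WT and 29.7 CPM in the library labelled ERAP1+/- (1.40-fold lower, 1.19 to 1.65), and it rested on Ackr3, since the other 3 summed to 98 and 148 reads (1.26, 0.971 to 1.65). Ackr3, which removes Cxcl12, had 224 and 128 reads, was 2.10-fold lower (1.68 to 2.62), and lay just past 2-fold with a difference of -1.01. Its share of all receptor reads went from 33.5% (30.1% to 37.2%) to 14.4% (12.3% to 16.9%). Ackr2, a scavenger of inflammatory CC ligands, had 27 and 12 reads and was 2.69-fold lower (1.32 to 5.84), with a difference of -0.97. Ackr4, which removes Ccl19, Ccl21 and Ccl25, had 34 and 93 reads and went the other way (2.28, 1.53 to 3.49), with a difference of 1.03. It shares exon sequence on the opposite strand with Acad11, which had 188 and 258 reads, and whether the counting kept strands apart is not stated. Ackr1, which carries ligands across venules and binds them on red cells, had 37 and 43 reads (0.971, 0.611 to 1.55), and 6.18% of its end stretches are shared with Cadm3 on the same strand. Blood endothelial markers summed to 157 and 181 CPM (1.15, 1.07 to 1.24). With plain CPM in place of TMM, Ackr3 was at -0.90 and no member was past 2-fold lower.

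**Figure D3:**
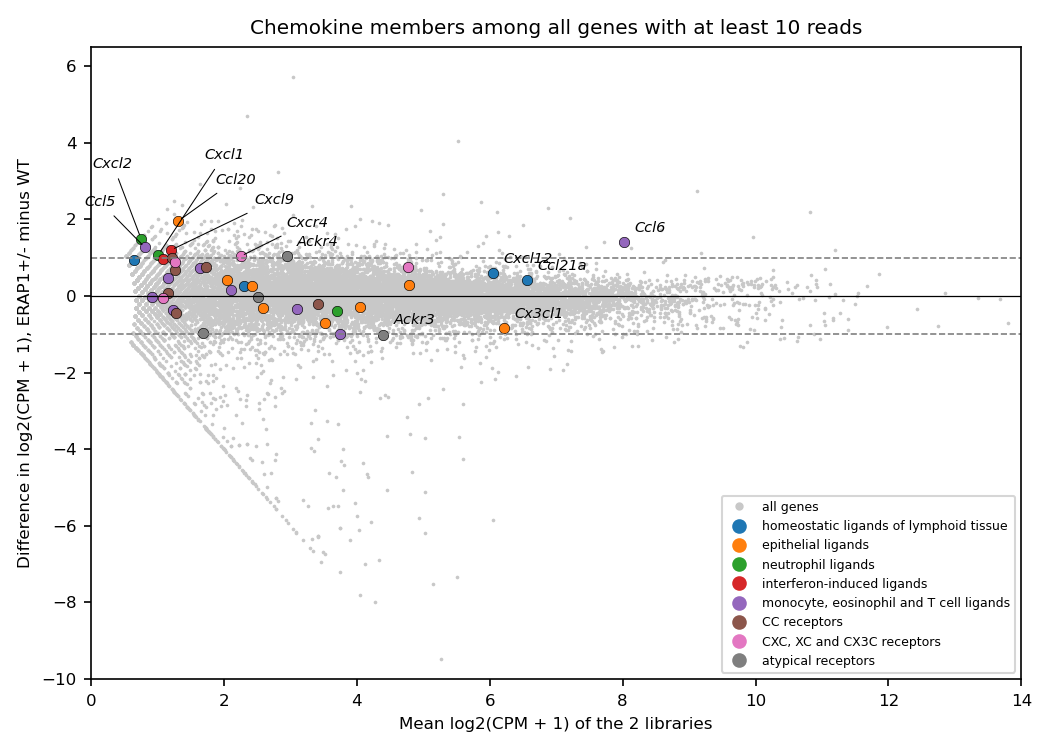
Difference in log2(CPM + 1), library labelled ERAP1+/- minus WT, against the mean of both libraries, for the 16142 genes with at least 10 reads (gray) and 40 of the 41 chemokine genes colored by role, with dashed lines at 2-fold. Ccl6 stands apart at high level, and the other members past the upper line lie at the left, where reads are few.

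Depth set how firmly these values can be read. Of the 41 members, 20 had 10 to 49 reads over both libraries. Of these, 5 were more than 2-fold higher and 0 were lower, beside 5.67% and 10.5% of genes with as many reads. The 5, Ccl20, Ccl5, Cxcl1, Cxcl2 and Cxcl9, had fewer than 10 reads in WT. With 50 to 199 reads, 2 of 11 members were higher and 0 were lower, beside 4.20% and 6.46% of genes. With 200 reads or more, 1 of 10 was higher, beside 1.24% of genes, and 1 of 10 was lower, beside 3.12%. Members just inside the limit were Ackr4 at 1.03, Cxcr4 at 1.04 and Ackr3 at -1.01, and those just outside were Ccr6 at 0.99, Ccl8 at -0.98, Ackr2 at -0.97, Cxcl10 at 0.95 and Ccl19 at 0.95.

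Receptors were set beside the summed ligands they are known to bind, by pairs listed from textbook knowledge. Of 19 receptors with pairs, 13 had at least 10 reads on both sides. For 4 of these, both intervals lay above 1: Ccr1 with the sum of its ligands, which is mostly Ccl6 (1314 and 4020 reads), Ccr6 with Ccl20, Cxcr4 with Cxcl12, and Ackr4 with Ccl19, Ccl21a and Ccl25 (659 and 1059 reads). For 2, the intervals lay on opposite sides of 1. Cx3cr1 was higher while its only ligand Cx3cl1 was lower, and Ackr3 was lower while its ligand Cxcl12 was higher. Cxcl12 was thus paired with a signaling receptor and an atypical receptor whose ratios lay on opposite sides of 1. In the other 7 pairs the interval of the receptor, of its ligands or of both included 1. Ccr2 is an example, at 0.845 (0.616 to 1.16) with the sum of Ccl2, Ccl7, Ccl8 and Ccl12 at 0.566 (0.439 to 0.726). That sum is mostly Ccl8, with 138 of 161 reads in WT and 79 of 109 in the library labelled ERAP1+/-. Ccl2 had a ratio below 1 (0.643) and Ccl7 and Ccl12 had ratios above 1 (1.79 and 1.39), each with an interval that included 1.

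**Figure D4:**
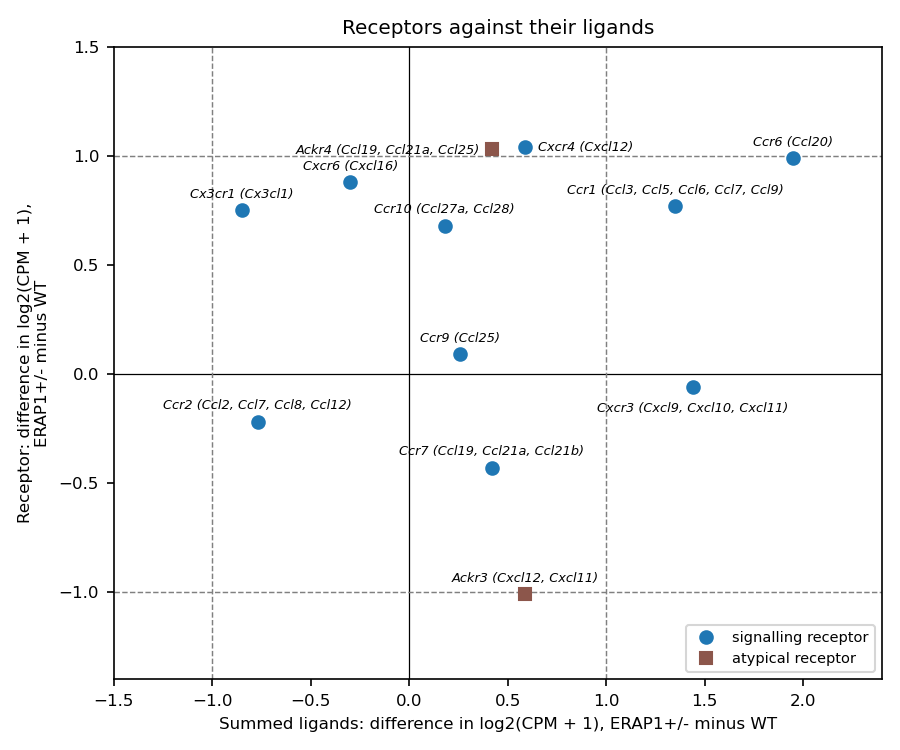
Difference in log2(CPM + 1), library labelled ERAP1+/- minus WT, of 12 of the 13 receptors (vertical) against that of their summed ligands (horizontal), with dashed lines at 2-fold. Circles are signaling receptors and squares are atypical ones. Ccr6 lies at the upper right with Ccl20, and Cx3cr1 and Ackr3 lie in opposite corners.

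Genes that act below the receptors did not share a direction. Of 53 genes for G proteins and effectors, arrestins, kinases and RGS proteins, and the migration machinery, all had at least 10 reads, 4 were more than 2-fold higher and 2 more than 2-fold lower, beside 2.99% and 5.63% of all genes, and their median difference in log2(CPM + 1) was -0.07. The 4 higher genes included Pik3cg (19 and 73 reads) and Pik3r5 (3 and 21). These encode the catalytic and regulatory parts of the PI3 kinase that leukocytes activate through G proteins. The others were Dock2, the Rac activator of lymphocyte migration (10 and 36), and Rgs14, a regulator of G protein signaling (5 and 24). Pik3r5 and Rgs14 reached 10 reads in the library labelled ERAP1+/- only. The 2 lower genes were Prkcb, a protein kinase C, and Rgs18 (33 and 14 reads). Among the 32 whose mean level reached 10 CPM, the lowest differences were those of Prkcb (1025 and 509 reads, -1.25), Prkcd (1484 and 963, -0.88) and Tiam1 (126 and 92, -0.66). The highest were those of Rgs1, which dampens chemokine responses of lymphocytes (104 and 203, 0.67), Grk5, a receptor kinase (68 and 120, 0.51) and Itga4, an integrin chain for gut homing (96 and 150, 0.36).

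Inducers of the ligands were sparse. Il1b, a cytokine that turns on Cxcl1, Cxcl2 and Ccl20 in many cells, had 9 reads in WT and 37 in the library labelled ERAP1+/- (3.43, 1.63 to 8.09). Tnf had 0 and 4 reads, and Il6, Il17a, Il22 and Ifng had none, which allows up to 0.386 CPM in WT and 0.322 CPM in the library labelled ERAP1+/-. The transcripts of the NF-kB pathway did not follow Il1b. Nfkbia had 3040 and 3679 reads (1.01, 0.963 to 1.06), Relb had 694 and 656 (0.790, 0.709 to 0.880), and Nfkbiz had 537 and 253 and was 2.54-fold lower (2.18 to 2.96). Of the interferon pathway, Irf1 had 1933 and 1652 reads (0.714, 0.668 to 0.763), whereas Cxcl9 and Cxcl10 were higher.

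**Figure D5:**
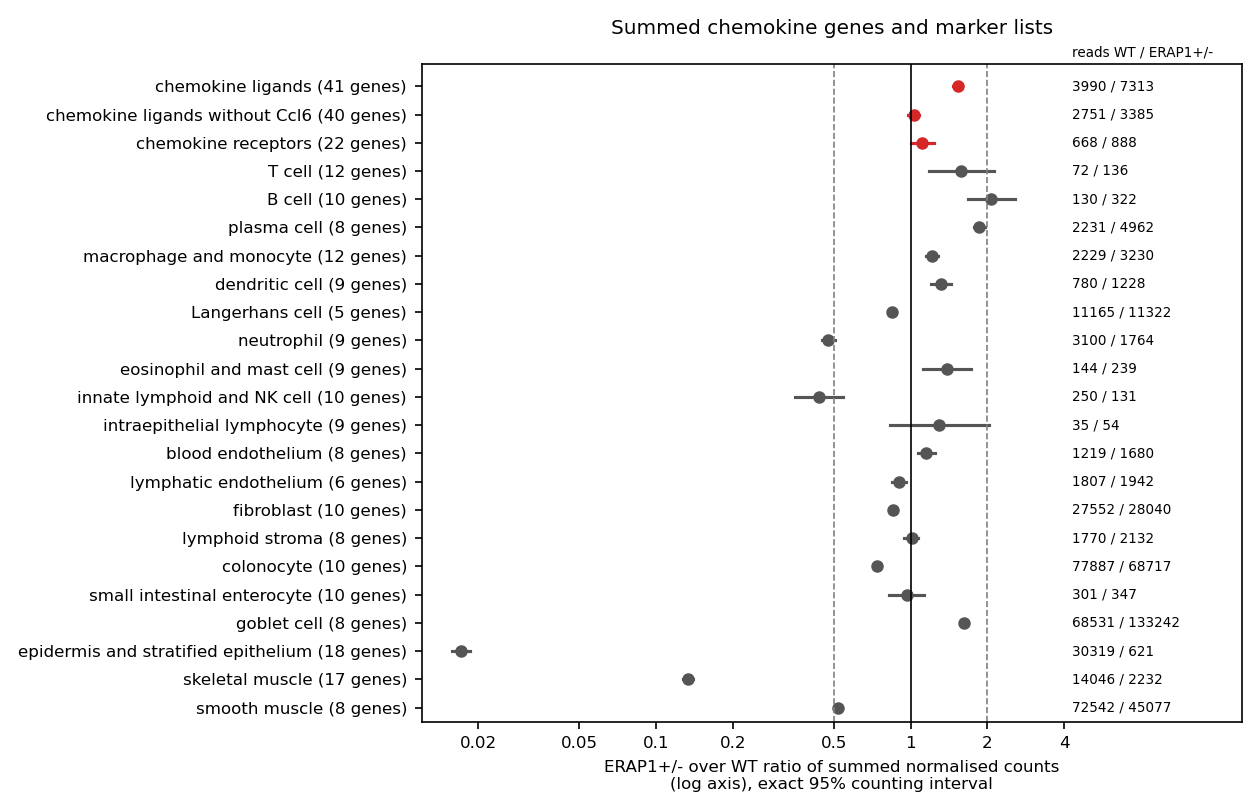
Ratio of summed normalized counts, library labelled ERAP1+/- over WT (log axis), with exact 95% counting intervals, for the chemokine genes (red) and for marker lists of cell types and tissues (gray), with reads at the right and dashed lines at 2-fold. The ligand sum lies at 1.53 and at 1.03 without Ccl6, B cell markers lie at 2.07, and epidermal and skeletal muscle genes lie far below 1.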

How the data were processed

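RNA of intestine from untreated mice was sequenced as 1 pooled library per genotype (QuantSeq 3' mRNA-Seq, single-end reads of 75 bases). For each library the authors deposited raw read counts of 40879 gene symbols, with no normalization. The methods give STAR with HTSeq-count in one place and Bowtie2 with RSEM in another, the latter also in the submitters' processing notes, and which made the deposited counts is not stated. RSEM would divide reads among similar genes and HTSeq would drop them, which bears on Ccl21a, Ccl19 and Ccl27a.

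Normalization used TMM factors of 0.958 (WT) and 1.04 (ERAP1+/-) from edgeR 4.0.16 under R 4.3.3. Members with at least 10 reads over both libraries were named, and 2-fold refers to log2(CPM + 1). With 1 library per group, the quasi-likelihood test could not be fitted. Intervals of ratios are exact conditional binomial, those of levels exact Poisson and those of shares Wilson (95%, scipy 1.17.1), and they cover counting error only. The scripts were tested on simulated data. Members, roles, pairs and lists were chosen with earlier results of these data known. Named beyond the members were the 3 highest and 3 lowest signaling genes whose mean level reached 10 CPM and the first 3 markers of several lists, and other genes of a list were named after their values were seen. Of the members with at least 10 reads, 1 is counted but not reported by name, and some other genes are not reported here. Coordinates are from GENCODE M21 (61 of 63 members found), on the build the methods name, and promoters from RefSeq. Alternatives were DESeq2 1.42.0 size factors, plain CPM, TMM without skin and muscle genes, other filters, pseudocounts and fold limits, thinning, and edgeR exact tests with an assumed biological coefficient of variation (BCV).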

Additional observations from a re-analysis of the deposited data

How the results depend on the processing

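No paired analysis was possible because there is only 1 library per genotype. The count of members past 2-fold (9, with 8 higher and 1 lower) was the same with DESeq2 size factors, with TMM factors made without skin and muscle genes and with no filter on low counts. With plain CPM, and with the deeper library thinned to the total of the other, 10 were past 2-fold, 10 higher and 0 lower. Plain CPM shifted the median of all genes by 0.11 on the log2 scale, put 3.97% of all genes past 2-fold higher and 4.93% lower, raised the ligand ratio from 1.53 to 1.67, and turned the sign of 3 of 41 members (Ackr1, Ccl24 and Cxcr3), each near 0. A pseudocount of 0.1 gave 18 members (15 higher and 3 lower), a limit of 30 reads gave 5 (4 higher), and a level of at least 4 in log2(CPM + 1) gave 2 (1 higher, Ccl6, and 1 lower, Ackr3). A limit of 1.5-fold gave 22 (17 higher and 5 lower), and a limit of 4-fold gave 0 (0 higher and 0 lower). The edgeR exact test at a false discovery rate of 0.05 called 4 members with an assumed BCV of 0.2 (4 higher, Ccl20, Ccl5, Ccl6 and Cxcl2, and 0 lower) and 0 with 0.4 (0 higher and 0 lower), and these numbers rest on the assumed value. Of the alternative settings, a share over all genes is given for plain CPM only, so the other counts of members have none beside them. The median difference of the members stayed between 0.21 and 0.40, and the receptor ratio between 1.11 and 1.21. Depth limits members with few reads, since 1 read more or less moves their ratio.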

Other observations

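Genes close to the chemokine family that its symbols leave out were also counted. Ppbp, the platelet ligand Cxcl7 that acts on Cxcr2, had 394 reads in WT and 66 in the library labelled ERAP1+/-, 7.15-fold lower (5.49 to 9.42), whereas Pf4, the other platelet ligand, had 374 and 415 (0.927, 0.804 to 1.07). Ppbp thus had more reads in WT than Cxcl1, Cxcl2 and Cxcl5 together, and it went the other way from Cxcl1 and Cxcl2. Dpp4, a surface peptidase that cleaves several chemokines, had 98 and 209 reads (1.78, 1.39 to 2.29). Rarres2, the precursor of the attractant chemerin, and its receptor Cmklr1 had ratios of 0.989 (0.887 to 1.10) and 1.05 (0.703 to 1.57). Cklf, a chemokine-like factor, had 61 and 117 reads (1.60, 1.17 to 2.22), and Ccrl2, a receptor that presents chemerin, had 10 and 14 (1.17, 0.483 to 2.94). These genes were listed with earlier results of the data known, and the causes of their differences were not tested.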
